A study of Homo sapiens with 4 samples.

Results

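The 10 tubulin genes described here are 5 β-tubulin genes (TUBB1, TUBB2A, TUBB4B, TUBB6 and TUBB) and 5 α-tubulin genes (TUBA4A, TUBA1A, TUBA1B, TUBA1C and TUBA8), out of 25702 genes counted in each library. The 10 were chosen by name, with their RUNX1::ERG against empty vector contrast and their shares of the tubulin counts already known. Their values in that contrast are therefore a description and carry no test. K562, an established cell line from a chronic myeloid leukemia, was transfected either with the LeGO-iG2 plasmid carrying the RUNX1::ERG fusion gene or with LeGO-iG2 alone, the empty vector. There were 2 biological replicates of each, and neither group had a drug treatment. The plasmid also encodes GFP. Introduction of the plasmid was transient and by nucleofection, and whether the sequenced cells were sorted is not stated. The time from transfection to RNA extraction is not given separately for the sequenced cells. Poly(A) RNA was sequenced, and the number of reads on each gene was the value deposited.

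Microtubules are hollow polymers of α/β-tubulin heterodimers. Humans have several α- and β-tubulin genes, whose products, the isotypes, share a conserved globular body and differ most in the acidic carboxy-terminal tail, where motor proteins, microtubule-associated proteins and modifying enzymes act. TUBB1 encodes the most divergent β isotype. It is largely restricted to the megakaryocyte lineage, where it forms the marginal band of the platelet, the ring of microtubules that keeps the platelet flat, and it is needed to make normal platelets. TUBA4A is an α isotype that is also abundant in platelets. TUBA1A, TUBA1B, TUBA1C, TUBB and TUBB4B serve dividing and neural cells broadly, TUBB2A and TUBB6 have broader and more variable distributions, and TUBA8 is a minor α isotype.

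The ends of the coding sequences of 4 β genes are shown because they encode the tails in which the isotypes differ. They are the last 60 bases of the coding sequence in the canonical GENCODE transcript on GRCh37, 5′ to 3′ and ending with the stop codon. Capitals mark bases that do not match TUBB4B in an alignment of the coding sequences.
TUBB4B: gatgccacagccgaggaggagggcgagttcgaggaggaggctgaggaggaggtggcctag
TUBB1: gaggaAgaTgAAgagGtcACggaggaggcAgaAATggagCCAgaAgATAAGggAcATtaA
TUBB2A: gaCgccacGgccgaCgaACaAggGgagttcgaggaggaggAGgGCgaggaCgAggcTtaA
TUBB6: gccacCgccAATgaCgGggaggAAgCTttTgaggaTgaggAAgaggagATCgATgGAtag
In the end of TUBB1, 24 of the 60 bases did not match TUBB4B, the most of the β genes, against 21 for TUBB6, 15 for TUBB2A and 11 for TUBB. Over the whole coding sequence TUBB1 was 74.3% to 76.0% identical to the other β genes, which were 80.9% to 87.2% identical among themselves. TUBA4A was 82.0% to 85.7% identical to the other α genes, and its last codon before the stop codon encodes glutamate. The last codon of TUBA1A, TUBA1B and TUBA1C encodes tyrosine, the residue that VASH enzymes remove and TTL puts back, and that of TUBA8 encodes phenylalanine.

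Sequence also sets how well each gene can be counted. TUBA1A, TUBA1B and TUBA1C were 95.9% to 97.2% identical in coding sequence. Every window of 150 bases, about 1 read, was taken from each transcript and looked for in the transcripts of other genes. The share found elsewhere was 48.7% for TUBB2A, all of it in TUBB2B. It was 19.1% for TUBA1B, 8.0% for TUBA1A, 7.2% for TUBA1C and 2.7% for TUBB. Genes that overlap a member on its own strand were left out of this search. None of the windows of TUBB1, TUBA4A, TUBA8, TUBB4B or TUBB6 occurred in the genes searched. For TUBA8 that is a limit. Its exons overlapped by 1931 bases those of ENSG00000288683, a gene on the same strand that was not in the files. The setting for reads that align to more than 1 gene is not given in the sources used here, so the split within TUBA1A, TUBA1B and TUBA1C, and between TUBB2A and TUBB2B, is uncertain. Overlap with genes on the other strand is a second limit. Exons of TUBB1 overlapped exons of ATP5F1E by 1180 bases, and exons of TUBA4A overlapped those of STK16 by 628 bases, and the strand setting is not given either.

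Facts of the whole series that bear on these genes are as follows. Library totals ran from 59695387 to 82352144 counts. As a check of the labels, ERG counts were 4 in both controls, 80443 in RUNX1::ERG replicate 1 and 27218 in replicate 2, and RUNX1 counts were 4736 and 3453 in the controls and 66232 and 28769 with the fusion. Replicates of a group were not duplicates of one library (chi-square per degree of freedom 94.7 and 72.3). Erythroid genes of K562 cells summed to between 11879 and 14028 normalized CPM (counts scaled by edgeR's TMM method to a common library size), and all 8 of them were expressed in every library. In bulk RNA, fewer cells expressing a gene and less RNA per cell cannot be told apart. The smallest p that an exact two-sided permutation test of 2 against 2 libraries can give is 0.333, so the p-values given below for other genes borrow their error from all genes through edgeR.

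TUBB could not be read as a level of its isotype. TUBB lies on chromosome 6 (30688129 to 30693199, plus strand, GRCh37) and had 31 and 40 counts in the empty vector libraries and 50 and 23 in the RUNX1::ERG libraries. The other 29 protein-coding genes listed within 500 kb of it had median counts of 2, 2, 6 and 4 in the same libraries, and 0 of the 29 had a mean of 1000 counts or more. On chromosome 6 beyond 5 Mb from TUBB, 312 of 696 genes (44.8%) did, with medians between 412.5 and 569 counts. Genes that dividing cells generally express were nearly empty there, such as FLOT1 (17, 7, 42 and 12 counts), MRPS18B (4, 6, 8 and 6) and the DNA damage mediator MDC1 (96, 93, 137 and 138). ATAT1, the α-tubulin acetyltransferase, lies in the same stretch and had 0 counts in all 4 libraries, which was not read as absence of its transcript. The cause of the low counts was not tested. The sums and shares below lack whatever TUBB contributes.

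**Figure D1:**
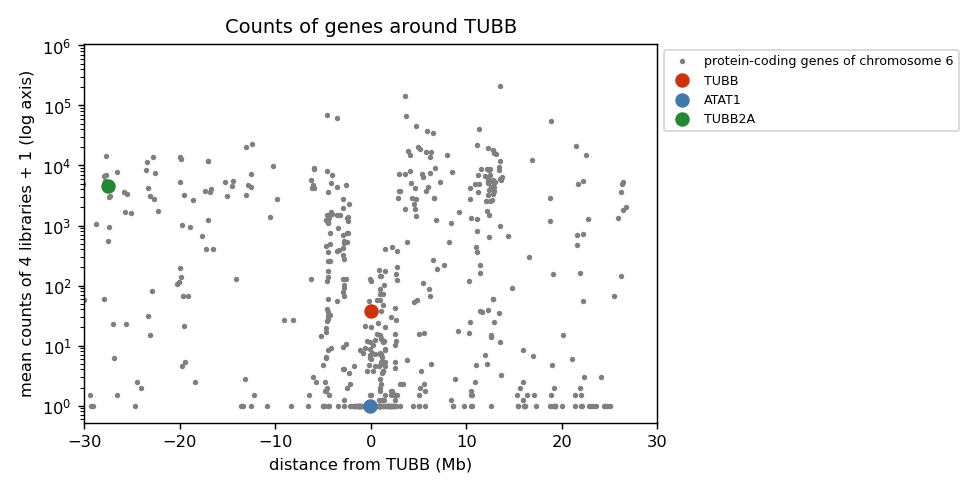
Mean counts over the 4 libraries plus 1 (log axis) of the protein-coding genes of chromosome 6 lying within 30 Mb of TUBB, against distance from TUBB in Mb. TUBB and ATAT1 lie in a stretch where 0 of the 29 genes within 500 kb reached a mean of 1000 counts, while TUBB2A on the same chromosome lies outside it.

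TUBB1 was the member that differed most between the groups. TUBB1 (NCBI gene 81027, chromosome 20, 57594484 to 57601709, plus strand, GRCh37; 4 exons, transcript of 3321 bases) had 3484 and 5006 counts with empty vector and 11145 and 10262 with RUNX1::ERG. In normalized CPM these were 57.8 and 71.0, and 132 and 143. Both RUNX1::ERG libraries were above both empty vector libraries, with a wide gap, and the means were 64.4 ± 9.29 and 137 ± 7.46 (SD, n = 2 each), a fold of 2.13 and a log2 fold change of 1.09. The gene was thus already expressed in the control cells, far above the counting limit. RUNX1::ERG replicate 1 had 954 normalized CPM of ERG and replicate 2 had 379. TUBB1 was slightly lower in replicate 1 than in replicate 2. TUBA4A (134 and 124) and TUBB2A (71.2 and 68.7) were slightly higher in replicate 1. A relation of these genes to the level of ERG was not tested.

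TUBA4A was the α member that differed most. TUBA4A (NCBI gene 7277, chromosome 2, 220114432 to 220118640, minus strand; 4 exons, 2049 bases) was at 61.0 and 84.4 normalized CPM with empty vector and at 134 and 124 with RUNX1::ERG. The groups did not overlap, but the empty vector libraries lay further apart than for TUBB1. The means were 72.7 ± 16.6 and 129 ± 7.21 (SD, n = 2 each), a fold of 1.78 and a log2 fold change of 0.83. Leaving out each library in turn gave a log2 fold change of 0.61 to 1.08 for TUBA4A and of 0.95 to 1.25 for TUBB1.

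The other members lay closer together. TUBB2A (chromosome 6, 3153900 to 3157778, minus strand) was at 49.5 and 62.2 normalized CPM with empty vector and at 71.2 and 68.7 with RUNX1::ERG, a log2 fold change of 0.33, and its reads are the ones that TUBB2B shares. TUBB6 (chromosome 18, 12308240 to 12326615, plus strand) was at 195 and 228 with empty vector and at 189.7 and 179.8 with RUNX1::ERG, a log2 fold change of -0.19. TUBB6 was thus the one member with both RUNX1::ERG libraries below both controls, and by a margin smaller than the gap between the controls. Both β genes moved by far less than TUBB1 did.

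The abundant members overlapped between the groups. TUBA1B (chromosome 12, 49521565 to 49525178, minus strand) was at 647 and 655 normalized CPM with empty vector and at 687 and 617 with RUNX1::ERG, a log2 fold change of 0.00. TUBA1C (chromosome 12, 49658865 to 49668383, plus strand) was at 737 and 1072 with empty vector and at 820.3 and 915 with RUNX1::ERG, a log2 fold change of -0.06. In TUBB4B (chromosome 9, 140135739 to 140138159, plus strand) the controls were at 380.3 and 663 and the RUNX1::ERG libraries at 543 and 582, a log2 fold change of 0.11. For TUBA1C and TUBB4B the RUNX1::ERG libraries lay inside the range of the controls, with empty vector replicate 1 the lowest library of both genes. The direction of these 3 genes turned when 1 library was left out, with ranges of -0.08 to 0.06 for TUBA1B, -0.31 to 0.23 for TUBA1C and -0.24 to 0.56 for TUBB4B.

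Among the scarce members, TUBA1A (chromosome 12, 49578578 to 49582863, minus strand) was at 4.83 and 3.55 normalized CPM with empty vector and at 4.2 and 4.73 with RUNX1::ERG. TUBA8 (chromosome 22, 18593575 to 18614499, plus strand) was at 1.05 in both controls and at 1.16 and 0.876 with RUNX1::ERG. Their log2 fold changes were 0.09 and -0.04, and the groups overlapped in both. Over all 10 members, 3 (TUBB1, TUBA4A and TUBB2A) had both RUNX1::ERG libraries above both controls, where 25.1% of the 15394 genes tested did, and 1 (TUBB6) had both below, where 22.1% did. The 10 genes all passed the filter on low counts. These counts are near the shares of all genes, and the size of the difference, not the number of members, set TUBB1 and TUBA4A apart.

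**Figure D2:**
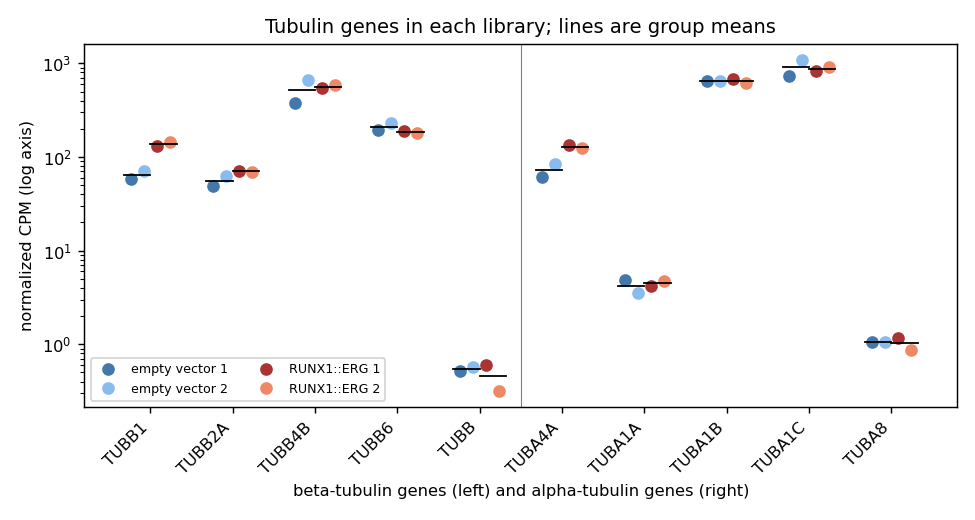
Normalized CPM (log axis) of the 10 tubulin genes in each of the 4 libraries, with β genes to the left of the grey line and α genes to the right; points are libraries and black lines are group means of 2 libraries. TUBB1 and TUBA4A show both RUNX1::ERG libraries well above both empty vector libraries (132 and 143 against 57.8 and 71.0 normalized CPM for TUBB1), while TUBA1B, TUBA1C and TUBB4B overlap.

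Levels were compared between genes per kb of transcript. With empty vector the order of mean normalized CPM per kb was TUBA1B (399.9), TUBB4B (334), TUBA1C (320.5), TUBB6 (112), TUBA4A (35.5), TUBB2A (34.6), TUBB1 (19.4), TUBA1A (2.51) and TUBA8 (0.523). TUBB is left out of the order, since its counts could not be read as a level. Neighbours in this order did not always differ beyond their spread. TUBA1B (397 and 403 per kb) and TUBB4B (243 and 424) crossed with empty vector. TUBB4B and TUBA1C (261 and 379.9) also crossed, as did TUBA4A (29.7 and 41.2) and TUBB2A (30.6 and 38.5). With RUNX1::ERG the order of these 9 genes by mean was the same, with TUBA4A at 63.1 ± 3.52, TUBB2A at 43.3 ± 1.1 and TUBB1 at 41.4 ± 2.25 normalized CPM per kb (SD, n = 2 each). TUBB1 was therefore below TUBB2A in both controls, and overlapped it with RUNX1::ERG (39.8 and 43.0 against 44.1 and 42.5). Per kb, TUBB4B at 359.9 remained the highest of the 4 β genes that could be read, and TUBB1 and TUBB2A were the lowest.

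The share of tubulin counts held by each gene describes the same counts within each library, where no scaling between libraries enters. It is not separate support for the differences above. TUBB1 made up 2.71% and 2.5% of the counts of the 10 genes with empty vector and 5.12% and 5.42% with RUNX1::ERG, a difference of 2.66 percentage points. For TUBA4A the shares were 2.86% and 2.97% with empty vector and 5.2% and 4.72% with RUNX1::ERG, a difference of 2.05 points. Neither gene's groups overlapped. Per kb, the share of TUBB1 in all 10 genes went from 1.55% to 3.14%, and that of TUBA4A from 2.81% to 4.79%. Within its own class, TUBB1 went from 7.7% to 14.4% of the β counts and TUBA4A from 4.42% to 7.82% of the α counts.

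TUBA1C held 34.5% and 37.8% of the counts with empty vector and 31.7% and 34.7% with RUNX1::ERG, with overlap. TUBB4B held 17.8% and 23.3% and then 21.0% and 22.1%, also with overlap. TUBB6 held 9.14% and 8.02%, and then 7.34% and 6.82%, without overlap. Since shares sum to the whole, a larger share of one gene lowers the others.

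**Figure D3:**
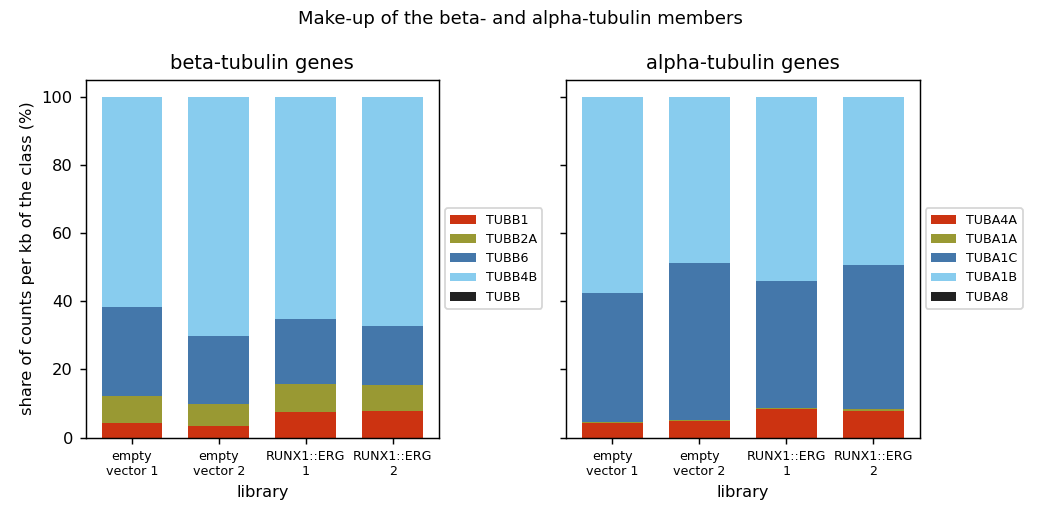
Share (%) of each gene in the counts per kb of the 5 β-tubulin genes (left) and the 5 α-tubulin genes (right), as stacked bars, 1 bar for each library. TUBB1 and TUBA4A, at the bottom of each stack, are larger in both RUNX1::ERG libraries, while TUBB4B and the pair TUBA1B and TUBA1C fill most of each bar.

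Summed over the 10 genes, tubulin RNA did not separate the groups. The sums and the ratio of β to α given here lack whatever TUBB contributes. The 10 genes together were at 2133 and 2841 normalized CPM with empty vector and at 2584 and 2635 with RUNX1::ERG, a log2 ratio of the means of 0.07. Both RUNX1::ERG libraries lay between the controls. The α genes summed to 1633 ± 259 and 1655 ± 10.6, and the β genes to 854 ± 241 and 955 ± 25.5 (SD, n = 2 each). The controls differed from each other by more than the groups did, and without empty vector replicate 2 the log2 ratio was 0.29 for all 10 genes, 0.19 for the α genes and 0.48 for the β genes. Leaving out TUBB1 and TUBA4A, the other 8 genes summed to 2014 and 2685 with empty vector and to 2318 and 2368 with RUNX1::ERG. The ratio of β to α transcripts per kb was 0.572 and 0.733 with empty vector and 0.682 and 0.721 with RUNX1::ERG, and these ranges overlapped.

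The gene regions just before TUBB1 and TUBA4A are shown because the fusion retains the DNA-binding parts of both a RUNX and an ETS factor. They are RefSeq promoter windows of 300 bases (250 before and 50 after the start of the transcript), 5′ to 3′ on the strand of the gene. Each was found once on that strand of its own chromosome in GRCh37, and other chromosomes were not searched. Capitals mark matches on either strand to any of 5 short motifs. The RUNX motif searched was TGNGGT. The first ETS motif was CCGGAA. The second ETS motif searched for was AGGAAG. For GATA factors the letters were AGATAA. For NF-E2 and AP-1 the core searched for was TGANTCA. No match overlapped another in these windows.
TUBB1, chr20:57594234-57594533, plus strand: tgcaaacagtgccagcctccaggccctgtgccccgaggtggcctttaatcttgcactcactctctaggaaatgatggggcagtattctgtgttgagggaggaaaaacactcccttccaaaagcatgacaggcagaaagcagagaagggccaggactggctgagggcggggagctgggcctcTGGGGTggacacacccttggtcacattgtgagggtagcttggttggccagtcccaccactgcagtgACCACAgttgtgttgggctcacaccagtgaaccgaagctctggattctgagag
TUBA4A, chr2:220118591-220118890, minus strand: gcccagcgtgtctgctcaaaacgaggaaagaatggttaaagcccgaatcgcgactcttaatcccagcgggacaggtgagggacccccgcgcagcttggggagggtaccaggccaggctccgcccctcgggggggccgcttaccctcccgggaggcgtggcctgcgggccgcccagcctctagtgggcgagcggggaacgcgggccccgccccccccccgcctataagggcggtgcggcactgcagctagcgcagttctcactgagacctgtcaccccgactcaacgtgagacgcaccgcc
TUBB1 had 2 TGNGGT matches, one on the plus strand at -69 to -64 from the start site and one on the minus strand at -3 to 3, and none of the other 4 motifs. On their own strands, the match at -69 reads TGGGGT and the match at -3 reads TGTGGT. TUBA4A had no match to any of the 5. Over the 14 windows of the 10 members, TGNGGT was in 6 and AGGAAG in 4, where 43.2% and 33.6% of all 35116 promoter windows hold them. The first ETS motif, the GATA motif and the NF-E2 core were in 0 of the 14, where 17.2%, 10.3% and 7.7% of all windows hold them. Among the members with overlapping groups, TUBA1A, TUBA1B and 1 TUBA1C window also had TGNGGT, and 1 of the TUBA1C windows held 5 copies of AGGAAG. A match is a description of the letters and shows no binding.

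Genes lying next to TUBB1, TUBA4A and TUBA8 were tested, since position had no part in choosing the members. Of the 18 nearest protein-coding genes (3 on each side), 16 were in the files and 14 were tested. Of all genes tested, 3.64% were called higher and 1.15% lower with RUNX1::ERG at an adjusted p under 0.05. Of the 14 neighbours, 2 were called higher and 0 lower, and both lie upstream of TUBA4A. DNAJB2, a co-chaperone of HSP70, starts 25.4 kb from the TUBA4A start and was at 5.73 and 5.83 normalized CPM with empty vector and at 16.7 and 13.1 with RUNX1::ERG. Its log2 fold change was 1.37 (SE 0.23, Benjamini-Hochberg adjusted p = 0.008, edgeR's quasi-likelihood test). PTPRN, a receptor-type phosphatase family member of secretory granules, lies beyond it and was at 3.82 and 4.59, and then at 9.96 and 9.82. Its log2 fold change was 1.23 (SE 0.24, Benjamini-Hochberg adjusted p = 0.018, edgeR's quasi-likelihood test). Neither passed without RUNX1::ERG replicate 1, where edgeR's quasi-likelihood test gave a Benjamini-Hochberg adjusted p of 0.075 for DNAJB2 and 0.1 for PTPRN.

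Downstream of TUBA4A, 2 neighbours did not pass. GLB1L had a log2 fold change of 0.24 (SE 0.31) and STK16, the kinase gene whose exons overlap those of TUBA4A, one of -0.17 (SE 0.19). TUBA4B, a tubulin-like gene that starts within TUBA4A on the opposite strand, had 1 count in each control and 24 and 13 counts with RUNX1::ERG. The ratio of its pooled counts was 15.5 (95% exact interval 3.99 to 133, covering counting error only and too narrow if read pairs gave 2 counts each), and it did not pass (Benjamini-Hochberg adjusted p = 0.058, edgeR's quasi-likelihood test). Its reads cannot be told apart from unspliced or antisense reads of TUBA4A without the strand setting. Of the gene counts from 1 to 10, between 66.7% and 68.9% were even in each library. Whether read pairs gave 2 counts each was not tested.

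Around TUBB1, 0 of the 5 tested neighbours were called. CTSZ, the cathepsin Z gene 12.2 kb before TUBB1, was at 161 and 173 normalized CPM with empty vector and at 139 and 112 with RUNX1::ERG, a log2 fold change of -0.41 (SE 0.16, Benjamini-Hochberg adjusted p = 0.22, edgeR's quasi-likelihood test). ATP5F1E, the mitochondrial ATP synthase subunit that overlaps the end of TUBB1, had a log2 fold change of -0.06 (SE 0.18). NELFCD, GNAS and PRELID3B were at -0.12, -0.02 and -0.1. Around TUBA8, USP18 (1.29, SE 0.47), DGCR6 (0.68, SE 0.25), MICAL3 (0.15) and PEX26 (-0.17) did not pass.

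**Figure D4:**
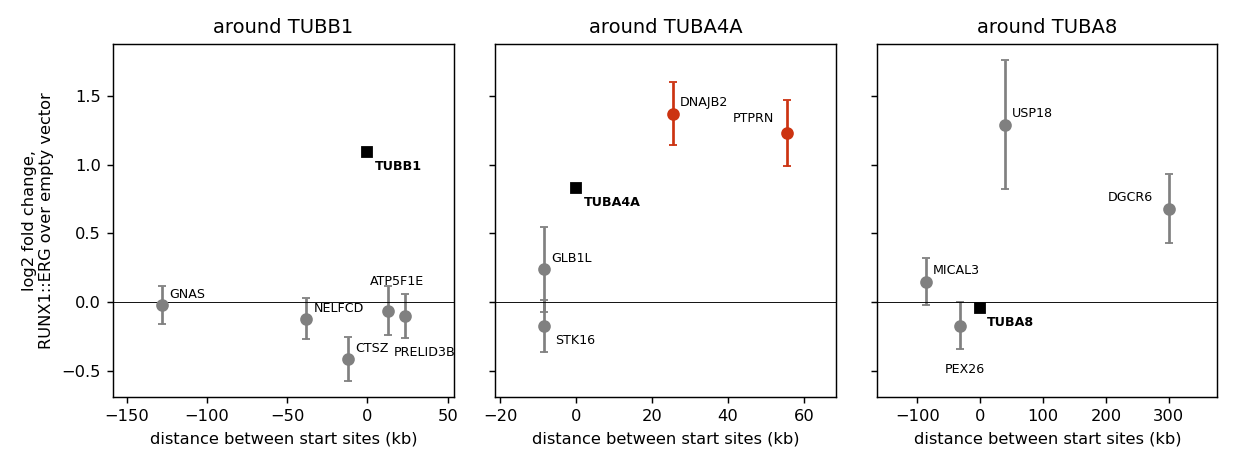
Log2 fold change (RUNX1::ERG over empty vector, bars are standard errors) of the tested neighbours of TUBB1, TUBA4A and TUBA8 against the distance between start sites in kb; the black square is the tubulin gene and red marks adjusted p under 0.05. DNAJB2 (1.37) and PTPRN (1.23) lie on one side of TUBA4A, and the 5 neighbours of TUBB1 lie between -0.41 and -0.02; TUBA4B, with 1 count in each control, is not drawn.

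The other tubulin genes were given by a list. Of 12 listed, 11 were in the files, 9 were tested and 0 were called (edgeR's quasi-likelihood test), while 2 were higher and 1 lower at an unadjusted p under 0.05. Other tools and settings called between 0 and 2. TUBAL3, a divergent α-tubulin, was at 8.12 and 10.3 normalized CPM with empty vector and at 15.2 and 13.8 with RUNX1::ERG, a log2 fold change of 0.66 (SE 0.22, Benjamini-Hochberg adjusted p = 0.13, edgeR's quasi-likelihood test). TUBB4A, at 1.01 and 1.15 and then 2.09 and 1.34, also had a log2 fold change of 0.66 (SE 0.39). TUBB3, the neuronal β isotype, was at 15.4 and 26.0 with empty vector and at 24.6 and 27.2 with RUNX1::ERG, and its groups overlapped.

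TUBE1, the ε-tubulin gene of centrioles, had 1810 and 835 counts with empty vector and 710 and 742 with RUNX1::ERG. The log2 fold change of -1.16 (SE 0.36, Benjamini-Hochberg adjusted p = 0.1, edgeR's quasi-likelihood test) rested on empty vector replicate 1, and was -0.34 without that library. TUBD1, the δ-tubulin gene, was at -0.02. TUBB2B, which shares reads with TUBB2A, was at 15.3 and 12.3 normalized CPM with empty vector and at 14.5 and 10.7 with RUNX1::ERG, a log2 fold change of -0.13 (SE 0.23), and its groups overlapped. TUBA3C and TUBA3D were at 0.18 and 0.17, and TUBA3E was not tested, its highest count being 10.

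Genes that fold, modify or bind tubulin were described by 7 further lists, of which the last holds transcription factors of megakaryocytes. All 8 lists were chosen with earlier results of these data known. Their counts beside the shares of all genes are therefore a description. Over all 8 lists, 137 of 138 genes were in the files, 120 were tested, 7 were called higher and 0 lower, where 3.64% and 1.15% of all genes tested were. The median of their log2 fold changes was -0.01, beside -0.002 for all 15394 genes. The 7 genes were 1 modifying enzyme, 3 microtubule-associated proteins and 3 transcription factors.

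The genes of tubulin folding and of microtubule nucleation had no calls. In the CCT chaperonin, the barrel that folds actin and tubulin chains, 0 of 9 genes were called (0 at an unadjusted p under 0.05 as well), with a median log2 fold change of -0.28. Of the 9, 5 had both RUNX1::ERG libraries below both controls and 0 had both above, where 22.1% and 25.1% of all genes tested did. With the replicate number as a block 2 were called, and without empty vector replicate 1, 1 was. The tubulin folding cofactors and prefoldin had 0 of 12 tested genes called and a median of -0.15. PFDN6, also listed, had at most 2 counts in a library and was not tested. It lies 2.57 Mb from TUBB, where RPS18 also had a low mean of 40.5 counts. The count of PFDN6 was therefore not read as absence of its transcript. The genes of γ-tubulin and nucleation had 0 of 22 called and a median of -0.08, with 10 below and 1 above without overlap, where 22.1% and 25.1% of all genes tested were. TUBG1, the main γ-tubulin gene, was that 1, at 113 and 125 normalized CPM with empty vector and at 137 and 136 with RUNX1::ERG. Of the 3 genes through which cells degrade tubulin mRNA when free tubulin is in excess, 0 were called. Neither the folding cofactors, the nucleation genes nor these 3 had a gene at an unadjusted p under 0.05 in edgeR.

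Among the tubulin modifying enzymes, 22 of 32 were tested and 1 was called. VASH1, a vasohibin that removes the terminal tyrosine of α-tubulin, rose from 0.631 and 0.709 normalized CPM to 3.81 and 3.99, a log2 fold change of 2.54 (SE 0.34, Benjamini-Hochberg adjusted p = 0.0021, edgeR's quasi-likelihood test). Counts were 38 and 50 with empty vector and 321 and 287 with RUNX1::ERG. The list's median was 0.03. TTLL7, a polyglutamylase that acts mainly on β-tubulin tails, had a log2 fold change of 0.98 (SE 0.28) and did not pass, although it did with DESeq2 and some other settings, and it is named here after its value was seen.

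Among microtubule-associated and severing proteins, 32 of 35 were tested and 3 were called, all higher (against 3.64% of all genes tested), with a median of 0.09. CLIP2, a linker protein of microtubule plus ends, rose from 4.83 and 4.52 normalized CPM to 32.0 and 27.1, a log2 fold change of 2.66 (SE 0.21, Benjamini-Hochberg adjusted p = 7.3e-05, edgeR's quasi-likelihood test). MAP1A, a protein that binds along microtubules of neurons, rose from 96.8 and 154 to 227 and 301, a log2 fold change of 1.07 (SE 0.23, Benjamini-Hochberg adjusted p = 0.023, edgeR's quasi-likelihood test). MAPRE2, which encodes the plus-end protein EB2, rose from 101 and 111 to 167 and 189.7, a log2 fold change of 0.75 (SE 0.16, Benjamini-Hochberg adjusted p = 0.023, edgeR's quasi-likelihood test). MAPRE2 did not pass without RUNX1::ERG replicate 2 (adjusted p = 0.092, edgeR). STMN4, drawn furthest to the right in this list, had 0 and 4 counts with empty vector and 24 and 10 with RUNX1::ERG and did not pass.

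Of the 12 transcription factors known in megakaryocytes, 11 were tested and 3 were called higher (against 3.64% of all genes tested), with a median of 0.45. Of the 11, 7 had both RUNX1::ERG libraries above both controls and 2 had both below. Of all genes tested, 25.1% and 22.1% did, but the list was chosen with earlier results of these data known. Those 2 were NFE2 and GATA2, with log2 fold changes of -0.1 and -0.3, and neither was called. GATA1 was at 0.07 with overlapping groups, and FLI1 was not tested, its highest count being 8. MEIS1, a homeodomain factor, rose from 6.11 and 6.17 to 14.4 and 16.9 normalized CPM, a log2 fold change of 1.35 (SE 0.22, Benjamini-Hochberg adjusted p = 0.0066, edgeR's quasi-likelihood test). ETV6, an ETS-family repressor, rose from 7.7 and 7.4 to 20.4 and 16.1, a log2 fold change of 1.27 (SE 0.22, Benjamini-Hochberg adjusted p = 0.0088, edgeR's quasi-likelihood test). TAL1, a basic helix-loop-helix factor of erythroid and megakaryocytic cells, rose from 197 in both controls to 323 and 308, a log2 fold change of 0.68 (SE 0.15, Benjamini-Hochberg adjusted p = 0.025, edgeR's quasi-likelihood test). Without RUNX1::ERG replicate 1 the adjusted p from edgeR was 0.083 for ETV6 and 0.14 for TAL1, and without replicate 2 it was 0.054 for TAL1.

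**Figure D5:**
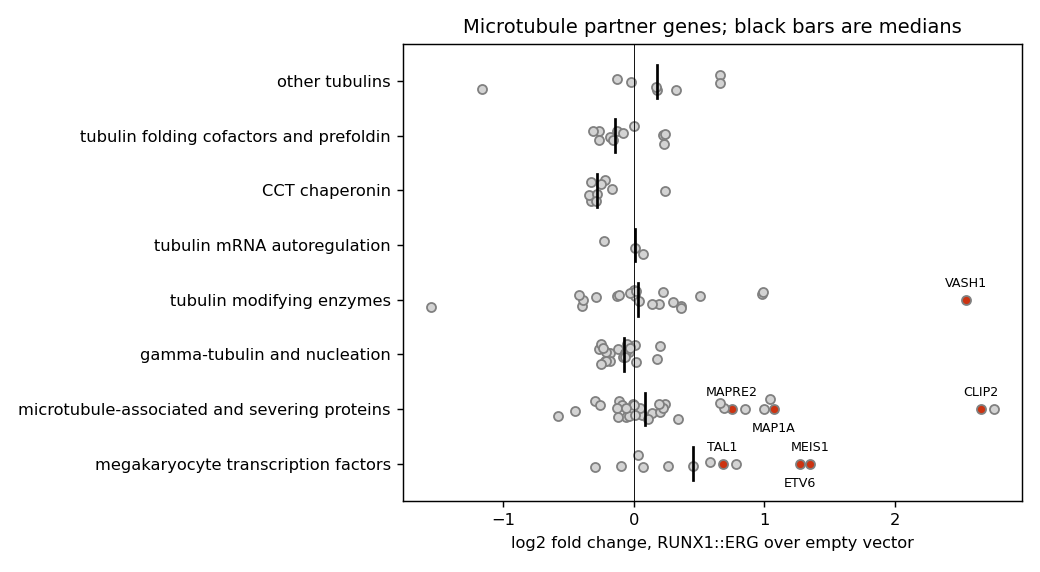
Log2 fold change (RUNX1::ERG over empty vector) of the tested genes of 8 lists, 1 point for each gene, with black bars at list medians and red points at adjusted p under 0.05. The 7 red genes all lie to the right of 0, and the lists of folding and nucleation genes cluster around or just below 0 (medians -0.28, -0.15 and -0.08); TUBA4B is not drawn.

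Markers of other cells were summed beside TUBB1, because TUBB1 itself is known from platelets. The 8 genes of mature megakaryocytes and platelets summed to 1.06 and 0.766 normalized CPM with empty vector and to 30.9 and 29.2 with RUNX1::ERG. PPBP (2 and 6 counts, then 1553 and 1462) and PF4 (0 and 2, then 874 and 555) made up nearly all of it. Of the 8, 4 (GP9, GP1BB, TREML1 and CLEC1B) had at most 3 counts in every library, and GP1BA was at 62 and 44 counts and then at 158 and 71. The 3 monocyte markers summed to between 7.21 and 10.4 and then between 20.8 and 22.1, and the 3 fibroblast markers to between 6.13 and 6.32 and then between 22.0 and 24.7, with every gene of both above 3 counts in some library. In the fibroblast list this was COL1A1 (4.13 and 3.62, then 22.0 and 19.6), and the groups overlapped for COL1A2 and COL3A1. The 4 T cell markers summed to 35.0 and 37.5 and then to 25.3 and 27.9. That sum was mostly CD3D (32.5 and 34.7, then 20.5 and 23.6 normalized CPM), while CD3G was higher with RUNX1::ERG (1.73 and 2.06, then 4.22 and 3.99). B cell markers stayed between 1.17 and 2.06, and neuron markers between 7.85 and 9.66. The part of these sums in the values of TUBB1 and TUBA4A was not tested.

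By Euclidean distance of log2 normalized CPM, centred over the 4 libraries, the genes with a mean of at least 10 normalized CPM that lay nearest to TUBB1 (of 9137) were ARHGAP21 (distance 0.097), SLC5A3 (0.134), CTDSPL (0.152), LCP2 (0.16) and LYZ (0.161). ARHGAP21 was at 149 and 171 with empty vector and at 313 and 356 with RUNX1::ERG. SLC5A3 is an inositol transporter and CTDSPL a phosphatase. LCP2, an adaptor of immune and platelet signalling, was at 15.5 and 19.1 and then at 40.7 and 40.5. TUBA4A was at rank 54 (0.32). Likeness over 4 libraries in 2 groups is mainly likeness in the size of the group difference.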

How the data were processed

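Raw counts of reads per gene were deposited by the authors for each library, without normalization, with genes listed by NCBI number. The submitters' processing notes name HISAT2 2.2.1, featureCounts 2.0.1 and hg19; the annotation and the strand and multiple-mapping settings are not given in the sources used here. Gene numbers were joined to symbols of a RefSeq table (92.2% of 25702 matched). Positions are from GENCODE v44 on GRCh37, and promoter windows from RefSeq, located in GRCh37 by exact match. Libraries were compared with edgeR 4.0.16 in R 4.3.3 (TMM scaling, filterByExpr, quasi-likelihood test, Benjamini-Hochberg adjustment, 0.05). The procedure was tested on simulated data, where 31% of genes with a 2-fold change and 96% with a 4-fold change were called. The spread of the simulated counts was set, not taken from these libraries. A gene that was not called was therefore not shown to be unchanged. Nothing beyond the group entered the fit. The alternatives were other scalings, no filter, DESeq2 1.42.0, limma 3.58.1 voom, a replicate block and leaving out each library; those of the neighbours by scaling, voom and left-out library, of the partner genes by DESeq2 size factors and of the members by voom were added once the data had been seen.

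The members and lists were chosen with earlier results of these data known. Genes named are the 10 members, other tubulins with at least 10 counts, list genes past the threshold (at most 5 per list), tested neighbours, the 5 profiles nearest to TUBB1, and ERG and RUNX1; genes named outside this rule are given as context for a count. Some items are not reported here. An identity of proteins was planned and replaced by that of coding bases. Labels number the replicates in both groups. Same-numbered libraries correlated in their deviations (r = 0.27 over 15394 genes), but no label ties a number to a batch, so no pairing was used.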

Additional observations from a re-analysis of the deposited data

How the results depend on the processing

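The log2 fold changes of TUBB1 and TUBA4A stayed between 1.08 and 1.14 and between 0.82 and 0.88 under other scalings, filters and tests, and leaving out 1 library gave 0.95 to 1.25 and 0.61 to 1.08. The rise in share was 2.51 to 2.81 points for TUBB1 and 1.8 to 2.29 for TUBA4A with 1 library left out. Per kb the TUBB1 share rose by 1.59 points, and against the own class the shares rose by 6.69 (TUBB1) and 3.4 points (TUBA4A), since the denominator changes. Summed levels ranged, without 1 library, from -0.12 to 0.29 (all members), from -0.13 to 0.19 (α) and from -0.1 to 0.48 (β).

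Genes called numbered 737, against 1500 with no filter, 1194 with DESeq2 (796 higher, 398 lower) and 286 to 1336 without 1 library. Partner genes called were 7, against 13 with no filter, 12 with DESeq2 and 5 to 13 without 1 library. Neighbours called were 2, and 0 to 2 without 1 library, 0 of them without RUNX1::ERG replicate 1. With 1 library left out, the lone library of a group is assumed to vary like the others. The cause was not tested.

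With the replicate number as a replicate block, 1733 genes, 16 partner genes and 3 neighbours were called. TUBA4B was the addition, and limma voom also called it (adjusted p = 0.046) and so 3 neighbours. TUBAL3 and TUBA4B passed there (adjusted p = 0.049 and 0.043 in edgeR), and TUBB1 and TUBA4A were at 1.10 and 0.85. The numbers share no stated batch, so this is not a paired result. TUBE1 passed with DESeq2 (adjusted p = 0.011), and its adjusted p in edgeR ran from 3.3e-09 without empty vector replicate 2 to 0.57 without empty vector replicate 1. TTLL7 passed with no filter (adjusted p = 0.035), DESeq2 (0.028), the block (0.025) and without empty vector replicate 2 (0.045), and reached 0.37 without RUNX1::ERG replicate 1. TUBA8 and TUBB had under 100 counts in every library.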
